A study of Mus musculus with 10 samples.

Results

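The nuclear-encoded genes of oxidative phosphorylation were taken from the deposited count table by name: symbols that start with Ndufa, Ndufb, Ndufs, Ndufv or Ndufc and a number, the 4 Sdh subunits, symbols that start with Uqcr or Atp5, and the Cox4 to Cox8 subunits, kept where GENCODE annotates a protein-coding gene. The pattern uses names and no measured value, but it was proposed with earlier results of these data known. The pattern matched 97 rows of the table, 12 of them pseudogenes or non-coding, which left 85 members among 49315 genes. There were 37 members in complex I, 4 in complex II, 8 in complex III, 18 in complex IV and 18 in complex V. The symbol Atp5o stands on 2 identifiers, so the 85 rows hold 84 symbols.

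The tissue was the granule cell layer dissected from the dorsal dentate gyrus, where the hippocampus receives its cortical input, and the mice were C57 BL/6 males. In the cocaine group were 5 poly(A) libraries and in the saline group 5, named for drug self-administration and each taken as 1 mouse. No genetic change is named for either group, and the sources used here do not give the dose, the number of sessions, the time of dissection or the age. The sample is tissue and not sorted cells, so it can hold RNA of any cell type in or beside the layer, and fewer cells of a type and less RNA per cell cannot be told apart.

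In oxidative phosphorylation, complexes I and II of the inner mitochondrial membrane take electrons from NADH and succinate, complex III passes them to cytochrome c, and complex IV hands them to oxygen. Complexes I, III and IV pump protons as they do so, and complex V, the ATP synthase, uses the returning protons to make ATP. Most subunits are encoded in the nucleus and the rest in mitochondrial DNA. In brain much of this ATP pays for the ion pumping that follows synaptic activity. The name pattern takes in Ndufa4, first described in complex I and now placed in complex IV, and Atp5s, a coupling factor of the ATP synthase, and leaves out the subunits Ndufab1 and Cyc1, which are counted with the carriers below.

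Promoters of these genes are known for binding sites of NRF1, of GABP (also called NRF2) and of YY1, and of the oestrogen-related receptor ERR alpha. RefSeq promoters of the build GRCm38.p6, from 250 bases before to 50 bases after each start, were found for 67 members, in 71 windows. An NRF1 site, spelled GCGC, any base, then TGCGC, was in 18 of 71 windows of members (25.4%), against 4.60% of all 32851 windows. The shorter NRF1 sequence TGCGCA, which can overlap the first, was in 18 windows (25.4% against 7.76%), and CCGGAAG, a GABP site, in 16 (22.5% against 8.86%). AAGATGG, a YY1 site, was in 10 (14.1% against 6.34%) and TNAAGGTCA, an ERR alpha site, in 3 (4.23% against 1.28%). The TATA box letters TATAAA were in 8 (11.3% against 13.6%). Both strands were searched, and the median GC content was 57.3% in members' windows and 52.7% in all windows. A match is a description of letters and not of a bound site.

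Promoter stretches of 4 members are given because the values below turn on them or because they show these letters in place. Each is the longest stretch free of annotated exons within the 250 bases before the start, read 5′ to 3′ on the gene's strand. Capitals mark a motif on either strand. Cox6a1, a common subunit of complex IV (chr5:115348982-115349129, minus strand), holds NRF1 sites. Atp5g3, a c-ring subunit of complex V (chr2:73911327-73911576, minus strand), holds an ERR alpha site. Atp5l, subunit g of complex V (chr9:44920752-44920992, minus strand), holds the short NRF1 sequence, a GABP site and the TATA letters on the opposite strand. Cox8b, the heart and muscle form of a complex IV subunit (chr7:140900447-140900696, minus strand), holds none of the 6 motifs in this stretch.
Cox6a1: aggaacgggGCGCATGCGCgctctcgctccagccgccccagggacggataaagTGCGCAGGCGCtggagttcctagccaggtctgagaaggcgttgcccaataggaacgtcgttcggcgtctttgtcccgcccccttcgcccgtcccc
Atp5g3: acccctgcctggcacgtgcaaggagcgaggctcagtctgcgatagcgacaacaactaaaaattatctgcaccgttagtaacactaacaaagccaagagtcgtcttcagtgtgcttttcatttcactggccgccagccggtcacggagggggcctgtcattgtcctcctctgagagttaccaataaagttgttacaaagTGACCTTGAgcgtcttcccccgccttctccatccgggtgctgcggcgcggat
Atp5l: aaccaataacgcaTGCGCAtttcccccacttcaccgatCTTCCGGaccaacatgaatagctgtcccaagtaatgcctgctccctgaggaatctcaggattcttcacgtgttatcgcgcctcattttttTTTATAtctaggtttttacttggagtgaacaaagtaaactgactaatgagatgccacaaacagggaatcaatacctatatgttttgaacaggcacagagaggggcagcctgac
Cox8b: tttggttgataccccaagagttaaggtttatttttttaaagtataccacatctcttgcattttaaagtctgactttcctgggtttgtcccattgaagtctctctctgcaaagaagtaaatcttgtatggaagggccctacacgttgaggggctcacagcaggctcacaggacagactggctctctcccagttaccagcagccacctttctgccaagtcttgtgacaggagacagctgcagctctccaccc

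The libraries held between 34991548 and 46481533 counts. Markers of granule cells were present in all of them, with Prox1 between 204 and 419 CPM and C1ql2 between 235 and 475 CPM, where CPM is the count scaled to a library total adjusted by TMM factors. Cocaine replicate 5 stood apart from the other 9 libraries: on the first principal component (24.6% of the variance) it lay at -54.2 and the others between -27.9 and 25.2. Of the marker lists, it had the highest summed level of oligodendrocyte (10330.0 CPM), choroid plexus (3620 CPM), ependyma (92.5 CPM), astrocyte (2550.5 CPM), microglia (403 CPM) and endothelium markers (240.3 CPM), and the lowest of granule cell (1127 CPM) and interneuron markers (538 CPM). These 2 low sums did not hold for each marker. Of the interneuron markers, Gad1, Gad2, Slc32a1 and Dlx1 were lowest in that library. Pvalb (31.8 CPM), Sst (88.2 CPM) and Vip (9.19 CPM) were highest there, and Lhx6 was neither. Of the granule cell markers, Prox1, Dsp, Lct and Stxbp6 were lowest there, and C1ql2, Tdo2, Plk5 and Calb1 were lower in another library. Because cocaine replicate 5 stood apart, results below are given with and without it.

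No member differed between the groups after adjustment. Of the 85 members, 82 passed the low-count filter, and 0 of these were called at an adjusted p below 0.05 (edgeR quasi-likelihood test, Benjamini-Hochberg over 17080 genes), as were 0% of all genes, the smallest adjusted p of any gene being 0.504. At an unadjusted p below 0.05, 1 member was higher with cocaine, where 5.58% of all genes were, and 0 members were lower, where 3.33% of all genes were. The log2 fold change, cocaine over saline, was above 0 in 69 of 82 members (84.1%) and in 53.6% of all genes, with a median of 0.11 for members and 0.02 for all genes. Under upper-quartile, RLE and total-count scaling the members' median was 0.14, 0.11 and 0.16, and it was -0.03 with voom sample weights.

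A single library carried most of that offset. Cocaine replicate 5 was the highest of the 10 libraries in 77 of 82 members, and it was the highest in 24.4% of all genes. Set against the saline mean of each gene on the log2 CPM scale, the members' median was 0.64 in cocaine replicate 5. The other 4 cocaine libraries stood at -0.06, -0.22, 0.11 and -0.09, and the saline libraries at -0.05, 0.06, 0.03, -0.06 and 0.02. Cocaine replicate 2 was the lowest library in 58 of 82 members, against 13.2% of all genes, and without it the members' median log2 fold change was 0.18. The median over all genes stayed between -0.02 and 0.02 in every library. As a share of all counts, the members took 1.41% in cocaine replicate 5, 0.846% to 1.03% in the other cocaine libraries and 0.920% to 1.01% in saline.

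Without cocaine replicate 5 the offset changed sign. In that fit 71 of 82 members had a log2 fold change below 0, as had 51.6% of all genes, and the median was -0.06. Between the 2 fits 58 members changed sign. At an unadjusted p below 0.05, 8 members were lower, where 4.96% of all genes were, and 1 was higher, where 8.87% of all genes were. After adjustment 0 members were called, beside 0.747% of all genes (126 higher and 3 lower of 17278), and the smallest adjusted p of a member was 0.138, for Sdhd.

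**Figure D1:**
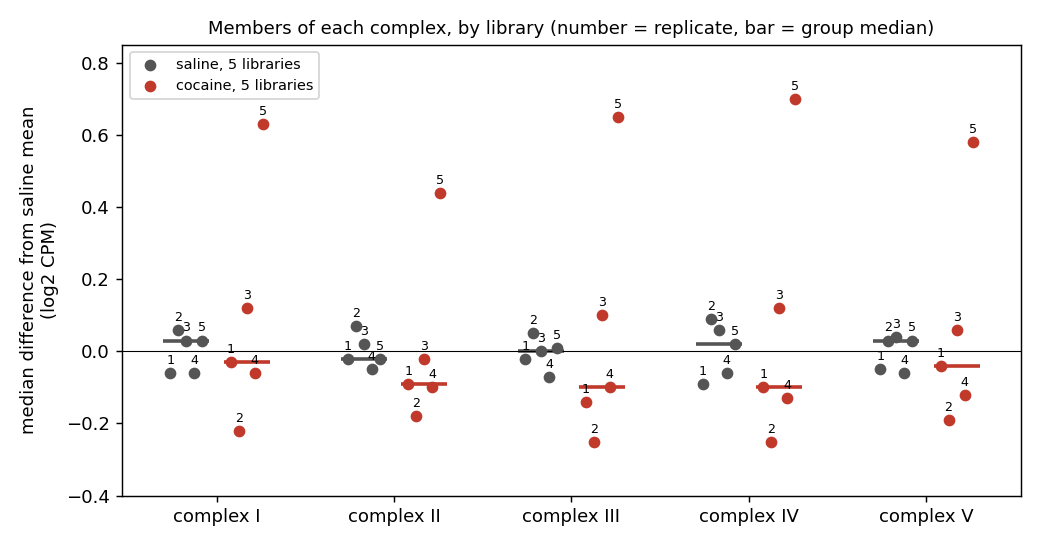
Median over the members of each complex of the difference from the saline mean, in log2 CPM, with 1 point per library (grey saline, red cocaine, number = replicate) and a bar at each group's median. Cocaine replicate 5 lies at 0.44 to 0.70 in every complex and the other 9 libraries between -0.25 and 0.12.

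Complex I oxidises NADH, with 7 nuclear-encoded core subunits and a larger number of accessory subunits around them. Some of the core subunits carry its flavin and iron-sulfur clusters. Of 37 members, 35 had a log2 fold change above 0 with all libraries (median 0.13) and 6 without cocaine replicate 5 (median -0.05). In either fit 0 passed the test. The 37 take in Ndufa4 and Ndufa4l2 by name, which are counted neither as core nor as accessory subunits here. All 28 accessory subunits were above 0 with all libraries (median 0.14) and 5 of 28 without that library (median -0.05). Core subunits had a median of 0.08 (5 of 7 above 0) and, without it, of -0.04 (1 of 7).

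The accessory subunits Ndufa13, Ndufb7 and Ndufa11 were, with a log2 fold change of 0.22 each, among the complex I members with the smallest p. Ndufa11, an inner-membrane subunit, stood at 61.1, 48.1, 58.6, 56.9 and 114 CPM in cocaine replicates 1 to 5 and at 50.3, 62.0, 59.7, 58.5 and 60.4 CPM in saline. Its first 4 cocaine libraries lay within or below the saline range, and the fold change was 0.22 (SE 0.19, adjusted p = 0.741, edgeR) with all libraries and -0.05 without cocaine replicate 5. Ndufb7, at 55.6, 48.7, 61.6, 49.1 and 93.7 CPM with cocaine, had 49.4, 55.9, 55.1, 52.0 and 53.6 CPM with saline. With that library left out Ndufb7 had a log2 fold change of 0.01. Ndufa13, also known as GRIM-19, went from 0.22 (SE 0.15) to 0.05 in the same way.

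Ndufs1, the largest core subunit and an iron-sulfur protein, did not follow. Its levels were 165, 167, 164, 157 and 165 CPM with cocaine and 172, 179, 178, 163 and 169 CPM with saline, so cocaine replicate 5 was in the middle of the range. The log2 fold change was -0.07 (SE 0.06, adjusted p = 0.714) with all libraries and -0.08 without that library. Ndufs3, another core subunit of the arm that faces the matrix, had 0.15 and 0.03 with and without that library. The accessory subunit Ndufv3 had 0.13 and 0.03, and the accessory subunit Ndufa5 0.17 and 0.00.

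Complex II, succinate dehydrogenase, has all 4 subunits encoded in the nucleus and belongs to the tricarboxylic acid cycle as well. Its median log2 fold change was 0.02 with 2 of 4 above 0, and -0.08 with 0 of 4 above 0 without cocaine replicate 5. Sdha (chr13:74322254-74350280), the flavoprotein that oxidises succinate, stood at 443, 442, 438, 437 and 438 CPM with cocaine and at 464, 487, 468, 436 and 459 CPM with saline. The cocaine libraries were nearly level, 439.5 ± 2.53 CPM against 463 ± 18.3 CPM (SD, n = 5 each), and overlapped saline only at saline replicate 4. Its log2 fold change was -0.07 in both fits (SE 0.06, adjusted p = 0.7097 with all libraries).

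Sdhd (chr9:50596357-50603812), a membrane anchor that binds haem and ubiquinone with Sdhc, had 67.8, 68.7, 69.3, 70.5 and 112 CPM with cocaine and 81.1, 81.3, 75.6, 75.9 and 77.2 CPM with saline. Cocaine replicates 1 to 4 lay below every saline library and cocaine replicate 5 above every one. The log2 fold change was therefore -0.01 (SE 0.13, adjusted p = 0.987) with all libraries and -0.18 (SE 0.05, adjusted p = 0.138) without that library. Sdhb, the iron-sulfur subunit, had 0.06 and -0.09, and Sdhc 0.05 and -0.04.

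**Figure D2:**
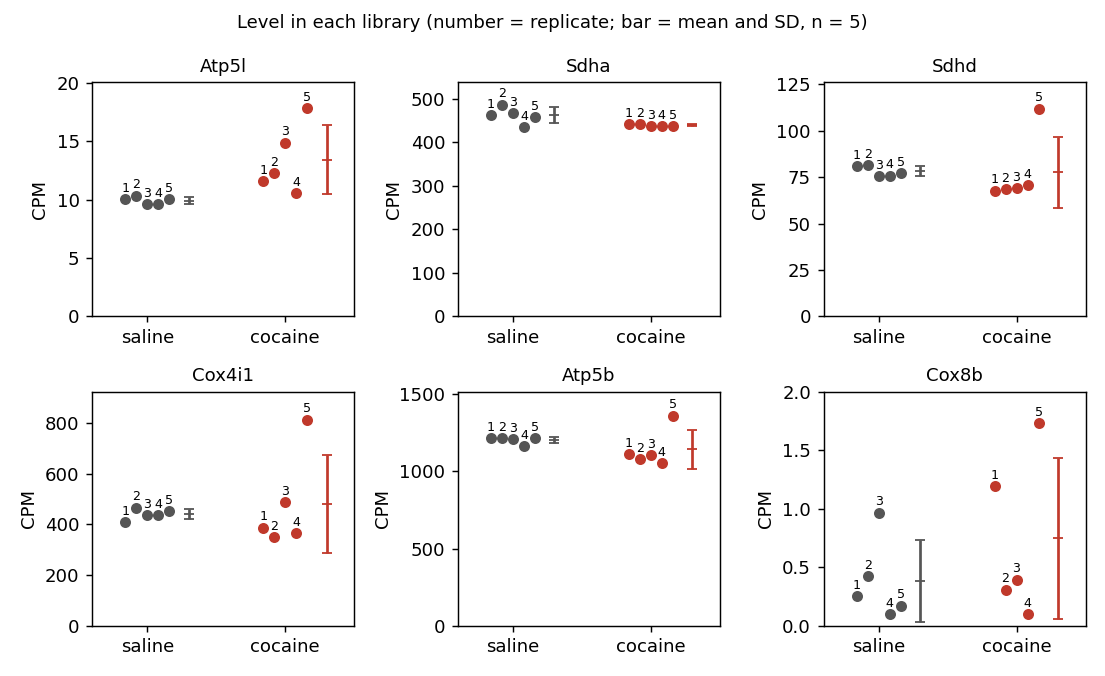
CPM of 6 members in each library (grey saline, red cocaine, number = replicate), with the mean and SD of the 5 libraries beside the points. Cocaine replicate 5 is the top point except for Sdha, and for Atp5l alone do all 5 cocaine points lie above all 5 saline points.

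Complex III moves electrons from ubiquinol to cytochrome c. Of 8 members, 7 were above 0 with all libraries (median 0.10) and 0 without cocaine replicate 5 (median -0.09). The small subunits had a larger offset in cocaine replicate 5 (median 0.81 over the saline mean, log2 CPM) than the core proteins and the Rieske iron-sulfur protein (median 0.44). Uqcr10, a small subunit, stood at 59.9, 52.8, 75.7, 57.7 and 138 CPM with cocaine and at 64.7, 67.9, 65.9, 65.2 and 69.0 CPM with saline. Its log2 fold change was 0.21 (SE 0.22) and, without cocaine replicate 5, -0.11. Uqcrh, the hinge protein of the complex, had 0.12 and -0.12. Uqcrc2, a core protein, had 207, 219, 226, 217 and 320.0 CPM with cocaine and 234, 233, 234, 236 and 246 CPM with saline, again with 4 cocaine libraries below saline and 1 above.

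Complex IV, cytochrome c oxidase, reduces oxygen, and its nuclear-encoded subunits include pairs of forms, a widespread one and one known for heart, muscle, lung or testis. Of 16 members tested, 14 were above 0 with all libraries (median 0.12) and 3 without cocaine replicate 5 (median -0.08). All 10 subunits counted as widespread were above 0 with all libraries (median 0.11) and 0 of 10 without cocaine replicate 5 (median -0.08). Cox7a2l, given below, is counted neither as widespread nor as tissue-restricted here. Cox4i1 (chr8:120668222-120674207), the widespread form of subunit 4, stood at 387, 349, 488, 365 and 813 CPM with cocaine and at 409.9, 466, 436, 437 and 452 CPM with saline. Cocaine replicate 5 was the highest and replicates 1, 2 and 4 lay below saline. The log2 fold change was 0.13 (SE 0.19, adjusted p = 0.875) and -0.15 without cocaine replicate 5.

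Cox7a2, the widespread form of subunit 7a, had 85.5, 85.1, 95.0, 88.0 and 157 CPM with cocaine and 97.6, 103, 105, 95.4 and 100.4 CPM with saline. Its 2 fits gave 0.03 and -0.18 (adjusted p = 0.166 without cocaine replicate 5). Cox7a2l, which helps complexes III and IV assemble together, had -0.01 and -0.17. Cox8a, Cox6a1, Cox6b1 and Cox7b had 0.11, 0.14, 0.09 and 0.14 with all libraries and -0.12, -0.04, -0.13 and -0.04 without that library.

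The tissue-restricted forms were low. On the scale of CPM per kb of annotated exon, the 5 that were tested lay between 1.57 and 7.93, below every widespread subunit of complex IV (45.9 to 364). Cox8c, known from testis, had 0 counts in all libraries, which allows up to 0.00741 CPM over the 405052240 counts together, for counting error only. Cox7b2 was too low to be tested, at 0.0281 to 0.709 CPM.

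Cox8b (chr7:140898945-140900446) had the largest log2 fold change of all members tested, 0.94 (SE 0.71, adjusted p = 0.700). It stood at 1.20, 0.308, 0.393, 0.0990 and 1.73 CPM with cocaine and at 0.252, 0.422, 0.967, 0.0980 and 0.171 CPM with saline. Its 3 highest libraries were cocaine replicates 5 and 1 and saline replicate 3, the 3 with the highest summed choroid plexus markers (3620, 2168 and 1400 CPM, against 62.8 to 809 CPM in the other 7). The log2 fold change was 0.37 without cocaine replicate 5 and 0.17 without these 3 libraries.

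Cox7a1, the heart and muscle form of subunit 7a, had 1.57, 1.28, 0.927, 1.71 and 2.63 CPM with cocaine and 0.655, 1.19, 1.98, 0.784 and 0.637 CPM with saline, a log2 fold change of 0.62 (SE 0.37) that was 0.38 without cocaine replicate 5 and 0.68 without the 3 libraries. Cox6b2, known from testis, had 0.52 (SE 0.27) and, without cocaine replicate 5, 0.32. Cox6a2, the heart and muscle form of subunit 6a, had 0.21 and -0.25, and Cox4i2, known from lung, had -0.03 and -0.25.

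**Figure D3:**
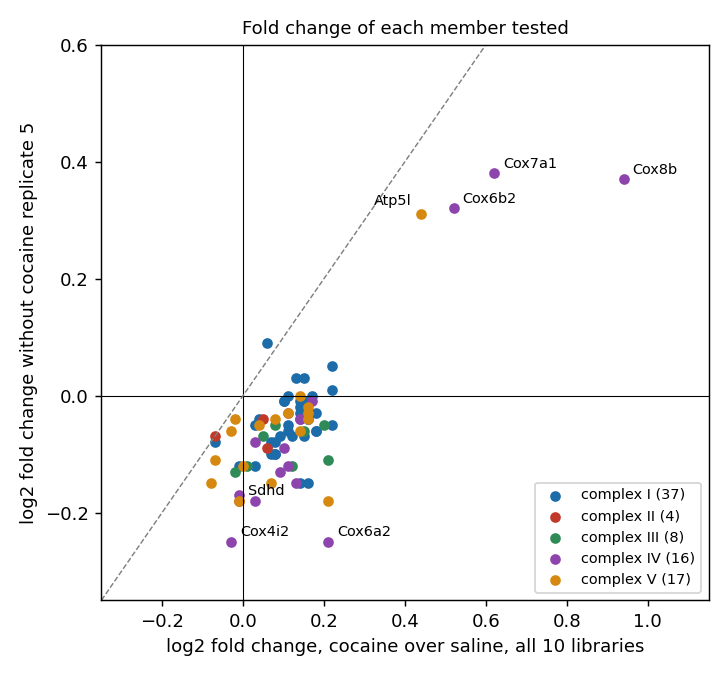
Log2 fold change of each of the 82 members with all 10 libraries (x axis) and without cocaine replicate 5 (y axis), coloured by complex, with the line of equal values dashed. Most points lie right of 0 on the x axis and below 0 on the y axis, and Atp5l, Cox7a1, Cox6b2 and Cox8b stay above 0.3 on both.

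Complex V consists of an F1 head that makes ATP, a c-ring turned by protons, a peripheral stalk and small membrane subunits. Of 17 members tested, 11 were above 0 (median 0.08) and 2 without cocaine replicate 5 (median -0.05). The F1 head and central stalk had a median of -0.01, and of -0.15 without that library.

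Atp5l (chr9:44912557-44920742) was the only member whose groups did not overlap. It stood at 11.6, 12.3, 14.9, 10.6 and 17.8 CPM with cocaine and at 10.05, 10.3, 9.61, 9.60 and 10.02 CPM with saline, 13.4 ± 2.93 CPM against 9.92 ± 0.318 CPM (SD, n = 5 each). Among all genes, the cocaine libraries lay above all saline libraries in 0.773% and below all in 0.609%, and 0 members were of the second kind. Its log2 fold change was 0.44 (SE 0.13, adjusted p = 0.504), and 0.31 (SE 0.11, adjusted p = 0.207) without cocaine replicate 5. Over all settings tried it ran from 0.29 to 0.62, and the test after adjustment was not passed in any. Atp5l shares 9.99% of its 50-base transcript stretches with 642 other genes, Gm10221 foremost, so some of its reads could have been assigned elsewhere or left out.

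The catalytic pair of the F1 head had the reverse order. Atp5b (chr10:128083273-128090391), the catalytic beta subunit, stood at 1111, 1082, 1108, 1054 and 1362 CPM with cocaine and at 1214, 1217, 1211, 1167 and 1216 CPM with saline. Cocaine replicates 1 to 4 lay below all saline libraries and cocaine replicate 5 above them, and the log2 fold change was -0.08 (SE 0.07, adjusted p = 0.777), or -0.15 (SE 0.05, adjusted p = 0.194) without that library. Atp5a1, the alpha subunit, had 826, 832, 814, 842 and 940.5 CPM with cocaine and 876, 913, 884, 891 and 909 CPM with saline, with log2 fold changes of -0.07 and -0.11. Atp5c1, the gamma subunit of the central stalk, had -0.01 and -0.18. In all, 6 members lay below every saline library in cocaine replicates 1 to 4 (Sdhd, Uqcrc2, Cox7a2, Atp5a1, Atp5b and Atp5c1) and Atp5l alone above. Among all genes tested, 1.97% lay below every saline library in these 4 and 4.11% above.

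The delta subunit gene Atp5d had 0.14 and 0.00, and Atp5h of the peripheral stalk had 0.16 and -0.02, with and without cocaine replicate 5. The 3 c-ring genes encode the same mature protein behind different import sequences. Atp5g3 had the highest level of the 3 (107 ± 11.9 CPM per kb, SD, n = 10), then Atp5g1 (17.9 ± 2.31) and Atp5g2 (7.87 ± 0.518). Their log2 fold changes were 0.04, 0.08 and -0.03. The second Atp5o identifier had 0 counts, and its exons lie wholly within same-strand exons of other genes, with Donson overlapping the most.

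Levels per length ordered the complexes' leading genes as follows. Length is the union of all annotated exons of a gene, which can exceed the transcripts expressed, so the order rests on the annotation. Spread between libraries does not measure this uncertainty. In saline, Cox4i1 had 440 CPM on 1550 bases and Cox8a 217 CPM on 619 bases. In complex IV, Cox8a led with 364 ± 86.0 CPM per kb (SD, n = 10 here and below), before Cox4i1 at 297 ± 84.9 and Cox6a1 at 293 ± 60.0. The SDs of the 3 overlap over all libraries, but they include the rise that the 3 share in cocaine replicate 5. Compared within each library, Cox8a lay above Cox4i1 and Cox6a1 per length in all 10. In the 5 saline libraries, where the spread was smaller, Cox8a (350.3 ± 15.9) lay above Cox4i1 (284 ± 13.5) and Cox6a1 (279 ± 12.6). In complex V, Atp5a1 at 278 ± 13.6 and Atp5b at 277 ± 21.3 do not differ beyond their spread. The leaders of complex III were Uqcr10 (123 ± 41.2) and Uqcrh (95.8 ± 24.5), and those of complex II Sdha (109 ± 4.19) and Sdhd (63.3 ± 10.5). Among members counted under complex I by name, Ndufa4 (118 ± 18.9), now placed in complex IV, and Ndufa1 (116 ± 26.5) led. The genes that came next in complexes III and I, Uqcrc2 (92.9 ± 12.2) and Ndufa8 (114 ± 21.1), were within the spread of Uqcrh and Ndufa1. In saline alone these neighbours changed places, with Uqcrc2 at 92.6 ± 2.11 and Uqcrh at 91.8 ± 6.11, and Ndufa8 at 111 ± 4.46 and Ndufa1 at 109.9 ± 7.47 (SD, n = 5). Ndufa4l2, a relative of Ndufa4 known as a hypoxia-responsive gene, was the lowest counted under complex I by name, at 1.75 ± 0.610. It had a log2 fold change of 0.16, against 0.03 for Ndufa4. Atp5l, at 1.81 ± 0.419, was the lowest tested of complex V, on an annotated exon length of 6443 bases.

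**Figure D4:**
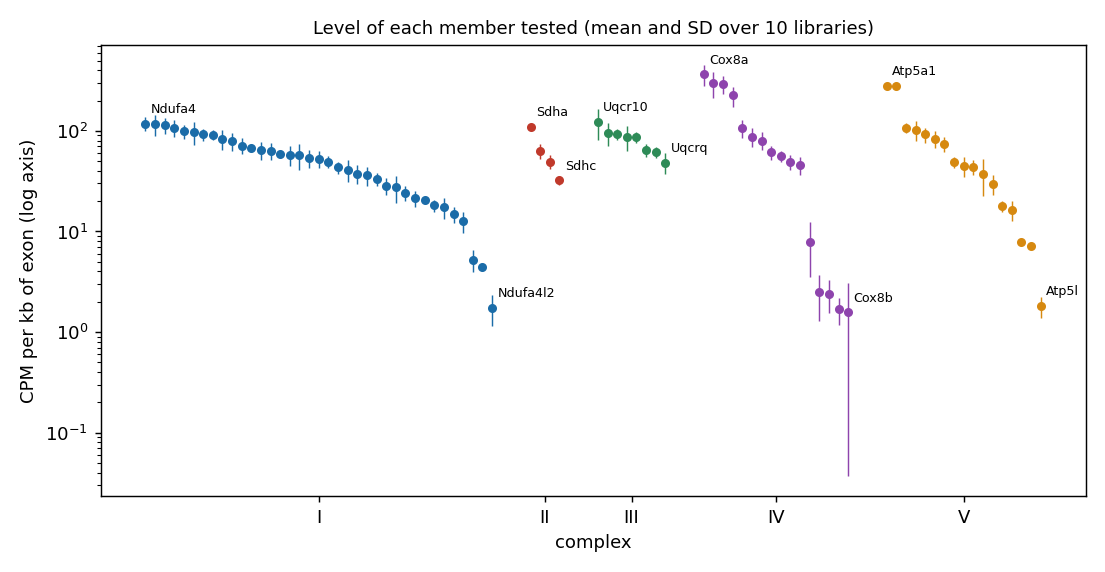
Mean level of each of the 82 members over the 10 libraries in CPM per kb of exon (log axis), with the SD, ordered within complexes I to V. Cox8a is the highest at 364, and the 5 tested tissue-restricted forms of complex IV fall to 1.57 to 7.93.

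Members varied more among the cocaine libraries than among the saline ones. The median SD over members, on the log2 CPM scale, was 0.345 with cocaine and 0.0779 with saline, and 0.150 among cocaine replicates 1 to 4. It was larger with cocaine in 75 of 82 members and in 70.3% of all genes, and without cocaine replicate 5 in 69 of 82 members and in 53.6% of all genes. The corresponding median SD over all genes was 0.247 with cocaine, 0.165 with saline and 0.172 among cocaine replicates 1 to 4.

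The members are short genes, and in cocaine replicate 5 short genes as a whole stood above their saline mean. The median annotated exon length was 1559 bases for members (360 to 8086) and 4099 bases for all genes. Among genes of up to 1000 bases, the median in cocaine replicate 5 over the saline mean (log2 CPM) was 0.69 for 21 members and 0.34 for 884 other genes. Over 1000 and up to 2000 bases it was 0.71 for 32 members and 0.37 for 2134 others, over 2000 and up to 3000 bases 0.41 for 11 members and 0.21 for 2727 others, and over 3000 and up to 5000 bases 0.47 for 15 members and 0.05 for 4646 others. The 3 members over 5000 bases had -0.06 and 6587 others -0.20. Of these 3, Ndufb2 had -0.08 and Ndufs1 -0.06, but Atp5l had 0.84. The 5 members in which another library was the highest were Ndufb2 (5628 bases), Ndufs1 (8086), Sdha (4126), Atp5s (2039) and Atp5g2 (1675). With an offset for length fitted in each library, 50 of 82 members were above 0 and the median log2 fold change was 0.03. Neat1, Malat1 and Meg3, RNAs that stay in the nucleus, took a share of all counts that was 0.103% in cocaine replicate 5, 0.148% to 0.255% in the other cocaine libraries and 0.0713% to 0.120% in saline, and the part of this share in the result was not tested beyond a fit that held it as a covariate, in which the median was 0.30.

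**Figure D5:**
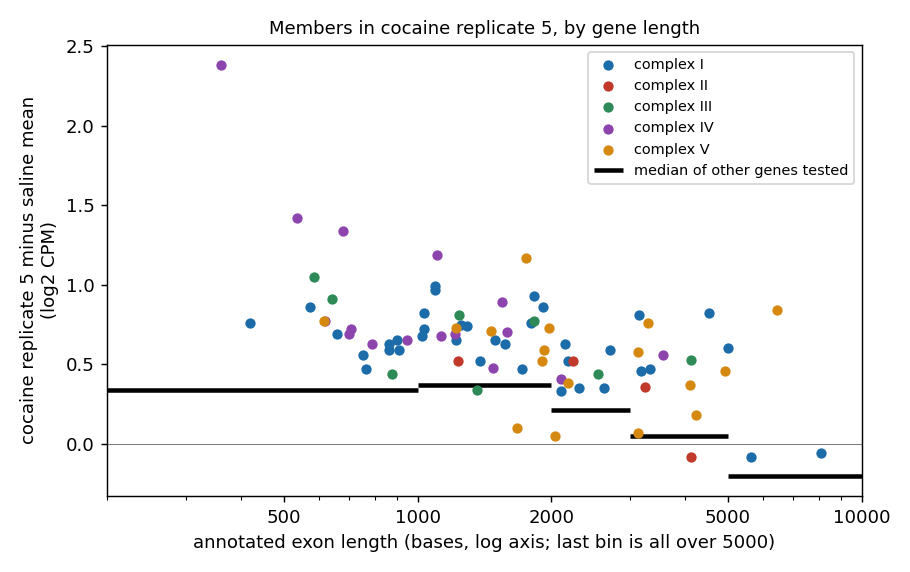
Difference of cocaine replicate 5 from the saline mean (log2 CPM) for each of the 82 members against annotated exon length (log axis), with black bars for the median of the other genes tested in each length range. The bars fall from 0.34 and 0.37 below 2000 bases to -0.20 over 5000 bases, and most members lie above them.

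Glial and choroid plexus markers moved with the same library. All 10 oligodendrocyte markers had a log2 fold change above 0 (median 0.66), with summed levels of 3858 to 10330.0 CPM with cocaine and 3806 to 5465 CPM with saline. All 8 choroid plexus markers were above 0 too (median 0.80), at 62.8 to 3620 CPM and 97.5 to 1400 CPM. No marker of these lists was at 0 in all libraries. With the oligodendrocyte score as a covariate, 5 of 82 members were above 0 and the median was -0.12, and without the 3 libraries highest in choroid plexus markers 15 of 82 were above 0 and the median was -0.05. Beyond these fits, the part of other cell types in the result was not tested.

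Other genes of the pathway were read from the same fit, and 0 of them passed the adjusted threshold in either direction with all libraries. Among 48 tested proteins of the large subunit of the mitochondrial ribosome, 41 were above 0 (median 0.08), and 16 without cocaine replicate 5 (median -0.03). Mrpl24, with the smallest p of that list, had 0.25 (SE 0.09) with all libraries and 0.19 without that library. Assembly factors were above 0 in 10 of 15 for complex I, 1 of 4 for complex II, 3 of 6 for complex III, 13 of 21 for complex IV and 1 of 4 for complex V. Without cocaine replicate 5 the counts were 6 of 15, 0 of 4, 1 of 6, 7 of 21 and 0 of 4, and the medians of the complex I, III and IV lists went from 0.02, 0.01 and 0.03 to -0.05, -0.08 and -0.02. Coa5, a complex IV assembly factor, stood at 77.8, 83.3, 75.1, 79.3 and 81.8 CPM with cocaine and at 101, 86.5, 93.2, 86.8 and 96.0 CPM with saline, so the groups did not overlap (log2 fold change -0.22, SE 0.07, adjusted p = 0.504). The value without cocaine replicate 5 was -0.23. The smallest p of the other assembly lists belonged to Ndufaf7 (0.17), Sdhaf3 (-0.15), Uqcc3 (0.14) and Atpaf1 (-0.13).

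Electron carriers and nucleotide exchange proteins, which include cytochrome c and the ADP/ATP carriers, were above 0 in 10 of 13 (median 0.06), and in 4 of 13 without cocaine replicate 5 (median -0.06). Ndufab1, the acyl carrier protein of complex I, had 0.24 and 0.16 in the 2 fits, and Cyc1, cytochrome c1 of complex III, had 0.10 and -0.01. Etfb, of the flavoprotein that brings electrons from fatty acid oxidation, had the smallest p with 0.75 (SE 0.27), and 0.54 without that library. The tricarboxylic acid cycle had 8 of 17 above 0 (median -0.02) and glycolysis 9 of 17 (median 0.00), the genes with the smallest p being Ogdh (-0.12) and Eno2 (-0.09). Like those of Coa5, the groups of Eno2 did not overlap, at 823 to 851 CPM with cocaine and 866 to 912 CPM with saline (adjusted p = 0.647, edgeR). Among all genes tested, cocaine lay below all saline libraries in 0.609%. Without cocaine replicate 5 the cycle had 2 of 17 above 0 (median -0.07) and glycolysis 3 of 17 (median -0.05). Regulators of mitochondrial biogenesis had 7 of 15 above 0 (median -0.03), and 7 of 15 without that library (median -0.01). Ppargc1a, the coactivator PGC-1 alpha, stood at 32.7, 29.1, 28.7, 29.96 and 23.7 CPM with cocaine and at 30.8, 36.4, 36.2, 32.2 and 33.9 CPM with saline, and was lowest in cocaine replicate 5 (log2 fold change -0.23, SE 0.09, adjusted p = 0.525, and -0.17 without that library).

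Read against the promoter letters, the 17 tested members with an NRF1 site had a median log2 fold change of 0.14 and the 48 without one 0.11. Without cocaine replicate 5 the median was -0.05 for both, and in that library both stood 0.65 above the saline mean (log2 CPM).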

How the data were processed

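Poly(A) RNA of the dissected dentate granule cell layer was sequenced in 5 libraries of the cocaine and 5 of the saline group. The values deposited are raw counts for each Ensembl gene, not normalized. The authors trimmed, aligned and counted reads with cutadapt, STAR, Cufflinks and HTSeq on mm10, per the submitters' processing notes. The sources used here give no version, annotation release or strand setting. Of 49315 identifiers, 49040 matched GENCODE M21 (mm10), which supplied symbols, biotypes, coordinates and exon lengths.

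The test was run in edgeR 4.0.16 with R 4.3.3 (TMM factors of 0.963 to 1.03, filterByExpr, quasi-likelihood F test, two-sided, Benjamini-Hochberg over 17080 genes, threshold 0.05), checked on simulated counts. Log2 CPM used a prior count of 2. Each library was taken as 1 mouse, which the labels do not state. Alternatives used upper-quartile, RLE and total-count scaling, DESeq2 1.42.0, voom of limma 3.58.1 with sample weights, no filter, a replicate block, covariates, a length offset, and libraries left out. All of these fits were run on the deposited counts.

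The members and lists were chosen with earlier results of these data known. Named are the 15 members with the smallest p, the 2 with the highest level per length in each complex, the isoform pairs, Sdha to Sdhd, and the gene with the smallest p in each pathway list. Other members named, such as Uqcrc2, Atp5c1, Ndufb2, Ndufa8 and Atp5s, and the carriers Ndufab1 and Cyc1, were chosen after their values were seen. Coa1 and Atp5if1 of the lists were not matched. Of 50-base transcript stretches, Atp5o shares 41.6% with other genes, Atp5g2 38.3%, Ndufb6 31.6%, Ndufa13 28.5%, Uqcrb 25.5%, Cox7c 22.1% and Ndufs5 21.7%, so their counts are uncertain.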

Additional observations from a re-analysis of the deposited data

Results flagged for a closer look

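Within each group of 5 libraries, the gap of an extreme library to its nearest neighbour was set against the group's whole range and called where it passed 0.71, Dixon's value for 5 samples. Of 84 groups of values examined, 15 passed. Chance flags about 1 in 20 of independent groups. The groups here come from the same 10 libraries and include sums of members, so the 15 cannot be set against that rate. In 13 of the 15 the library was cocaine replicate 5, always on the high side. These 13 describe 1 library, already known to stand apart, and are not separate results. The summed level of all members was 13800 CPM in that library (ratio 0.712), against 8614 to 10110 CPM in the other cocaine libraries, and the mean offset of complex II had a ratio of 0.734. Among members counted under complex I by name, the ratio was 0.713 for Ndufb7, 0.803 for Ndufa11 and 0.735 for Ndufa4. Sdhd of complex II had the highest of all, 0.938, and Uqcr10 of complex III had 0.731. In complex IV it was 0.715 for Cox8a, 0.862 for Cox7a2 and 0.714 for Cox7a2l. In complex V it was 0.781 for Atp5a1, 0.814 for Atp5b and 0.726 for Atp5h. The other two were on the low side in saline replicate 4, for Ndufa1 (40.7 CPM, ratio 0.712) and for Atp5b (1167 CPM, ratio 0.873).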

How the results depend on the processing

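No member passed the adjusted threshold under any alternative that was run. Over all genes, DESeq2 called 20 higher and 1 lower and voom with sample weights 91 and 4, where edgeR called 0 and 0, and leaving out 1 library at a time gave 0 to 126 higher and 0 to 3 lower, the most without cocaine replicate 5. The number of members above 0 moved from 69 to 25 with voom weights, to 15 without the 3 libraries highest in choroid plexus markers and to 5 with a covariate for the oligodendrocyte score, and ran from 11 to 77 when 1 library was left out. The cause was not tested. The members' median log2 fold change ran from -0.06 to 0.18 over the libraries left out, highest without cocaine replicate 2, and was below 0 in only 1 of these 10 fits, the fit without cocaine replicate 5. A covariate for the counts on Neat1, Malat1 and Meg3 gave a median of 0.30, with 77 of 82 members and 51.3% of all genes above 0. This share and the oligodendrocyte score both differed between the groups, so neither covariate can be separated from the group. The labels do not say whether replicate numbers pair the libraries. Deviations of libraries with the same number correlated between -0.215 and 0.029, and 0 libraries correlated best with their own number. Low correlations cannot exclude a paired design, because other differences among the libraries can outweigh what a pair shares. With a replicate block, 67 of 82 members were above 0, the median was 0.07, Atp5l had 0.41, and 0 members were called. Members at around 1 CPM or below, such as Cox8b, rest on few counts and their fold changes are uncertain. Scaling moved the median of all genes from 0.02 to 0.04 (upper quartile), 0.01 (RLE) and 0.06 (total counts).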
